A study of Mus musculus with 24 samples.

Results

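The genes described here are 9 genes that oligodendrocytes use to build and hold the myelin sheath, namely Mbp, Mobp, Mog, Mag, Cnp, Cldn11, Mal, Opalin and Ermn. They were taken by symbol from the 47593 genes of a table of hippocampal RNA sequencing counts, and each symbol named 1 row and 1 annotated gene. The table holds 24 libraries from male C57BL/6J mice of 8 to 12 weeks, in 8 groups of 3 biological replicates. WT mice and mice with a deletion of Tob (Tob-KO) were either naive or had undergone fear conditioning 15 min, 1 h or 3 h before the tissue was taken. In this procedure a tone is paired with foot shocks, and a mouse learns to fear the chamber where it received them. The study's methods refer to an earlier report for the Tob-KO mice, and they describe a deletion limited to the hippocampus separately. The targeted gene, listed as Tob1, went against the labels: WT libraries had 40.4 ± 3.39 TMM-normalized CPM of it (SD, n = 12), where CPM are counts scaled to a common library size, and those labelled Tob-KO had 59.8 ± 6.62 CPM (SD, n = 12), a log2 fold change of 0.56 (SE 0.037, edgeR quasi-likelihood adjusted p = 1.17e-09). Every direction between genotypes below therefore refers to the library labels. The total count per library was 28847989 to 41595972, and none of the 10 markers of hippocampal and other neurons was at 0 in any library, with a summed level of 9627 to 10917 CPM.

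Oligodendrocytes wrap the axons of the central nervous system in many turns of membrane, which insulates the axon and speeds its impulses. Myelin basic protein, encoded by Mbp, and the protein of Mobp hold the inner faces of that membrane together and compact it. Mog and Mag encode adhesion proteins of the immunoglobulin family, on the outermost face of the sheath and on the face next to the axon, respectively. Cnp encodes an enzyme that keeps cytoplasmic channels in the sheath open. Cldn11 encodes the claudin of the tight junctions between the turns, Mal a membrane protein that sorts cargo to myelin, Opalin a membrane protein of mature oligodendrocytes, and Ermn a cytoskeletal protein of the last stage of maturation. In the hippocampus myelin lies mostly in the alveus, the fimbria and the perforant path.

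The promoters of 4 of the 9 genes are printed, and whether they bear on the levels described below was not tested. RefSeq (GRCm38.p6) gave the 300 bases from 250 before to 50 after the start for 8 of the 9 genes, as 10 promoters. The letters ACAAAG, the core bound by SOX factors such as SOX10, and CTGGCAC, the core bound by MYRF, both regulators of oligodendrocytes, were searched on both strands with CAGCTG, an E-box of the kind bound by OLIG2, and TATAAA. The sequences are given 5′ to 3′ on the strand of the gene, with matches in capitals. The Cnp promoter is at chr11:100574689-100574988 on the forward strand, that of Mag at chr7:30914814-30915113 on the reverse strand, that of Mobp at chr9:120149492-120149791 on the forward strand and that of Opalin at chr19:41077064-41077363 on the reverse strand.
Cnp promoter: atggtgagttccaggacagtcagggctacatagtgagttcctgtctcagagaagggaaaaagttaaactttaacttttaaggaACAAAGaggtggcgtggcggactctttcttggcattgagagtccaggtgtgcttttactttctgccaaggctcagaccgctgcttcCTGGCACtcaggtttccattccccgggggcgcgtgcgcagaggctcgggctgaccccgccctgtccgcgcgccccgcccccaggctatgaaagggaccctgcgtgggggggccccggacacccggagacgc
Mag promoter: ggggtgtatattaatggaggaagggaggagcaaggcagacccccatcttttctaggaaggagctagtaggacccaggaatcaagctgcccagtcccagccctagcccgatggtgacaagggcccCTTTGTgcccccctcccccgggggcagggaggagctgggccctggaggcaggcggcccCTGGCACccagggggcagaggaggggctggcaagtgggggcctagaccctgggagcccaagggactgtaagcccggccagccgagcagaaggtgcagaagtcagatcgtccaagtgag
Mobp promoter: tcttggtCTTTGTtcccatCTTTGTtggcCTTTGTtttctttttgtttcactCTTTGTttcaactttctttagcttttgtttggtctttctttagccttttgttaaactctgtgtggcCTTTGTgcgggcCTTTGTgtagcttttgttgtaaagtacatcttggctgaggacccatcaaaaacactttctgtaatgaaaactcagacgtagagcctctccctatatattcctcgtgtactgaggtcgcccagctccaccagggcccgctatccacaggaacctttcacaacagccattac
Opalin promoter: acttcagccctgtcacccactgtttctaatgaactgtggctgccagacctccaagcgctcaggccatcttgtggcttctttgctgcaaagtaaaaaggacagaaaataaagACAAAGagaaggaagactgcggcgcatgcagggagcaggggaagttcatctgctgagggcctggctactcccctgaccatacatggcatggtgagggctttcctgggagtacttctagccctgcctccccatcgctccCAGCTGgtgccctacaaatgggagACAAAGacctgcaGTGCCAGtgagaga
The SOX core was found in 5 of the 10 promoters and in 18.7% of all 32851 promoters searched. The 5 belong to these 4 genes, which were printed for having a match, with 6 matches in that of Mobp and 2 in that of Opalin. Overlapping windows of Mag hold the same matches. The MYRF core was found in 4 of the 10 promoters, those of Cnp, Mag and Opalin, and in 5.01% of all. The E-box was found in that of Opalin alone and in 16.3% of all, and TATAAA in none of the 8 genes' promoters and in 13.6% of all. Promoters of Mog, Mal, Cldn11 and Ermn held none of the 4 motifs in these windows. A match is a run of letters and no evidence of binding.

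Mbp was by far the most abundant of the 9. Its level over the 24 libraries was 2345 ± 278 CPM (SD, n = 24), and each library held 58341 to 116773 counts of it. Mobp followed with 952 ± 111 CPM, Cnp with 310.1 ± 38.9, Mal with 265 ± 29.5, Cldn11 with 169.1 ± 19.3, Mag with 169 ± 22.4, Ermn with 76.1 ± 8.91, Mog with 59.0 ± 8.86 and Opalin with 17.3 ± 4.28 CPM (each SD, n = 24). Levels of different genes can be compared only per length of transcript. Per kilobase of merged exons, Mbp stood at 277 ± 32.8 CPM and Mobp at 139 ± 16.3. Mal (95.5 ± 10.6), Cldn11 (90.4 ± 10.3) and Cnp (85.2 ± 10.7) were within 1 SD of each other on this scale. Mag stood at 41.4 ± 5.50, Mog at 34.6 ± 5.20, Ermn at 20.9 ± 2.45 and Opalin at 5.86 ± 1.45 CPM per kilobase. Even Opalin had at least 323 counts in every library, so counting error was small beside the spread between mice.

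**Figure D1:**
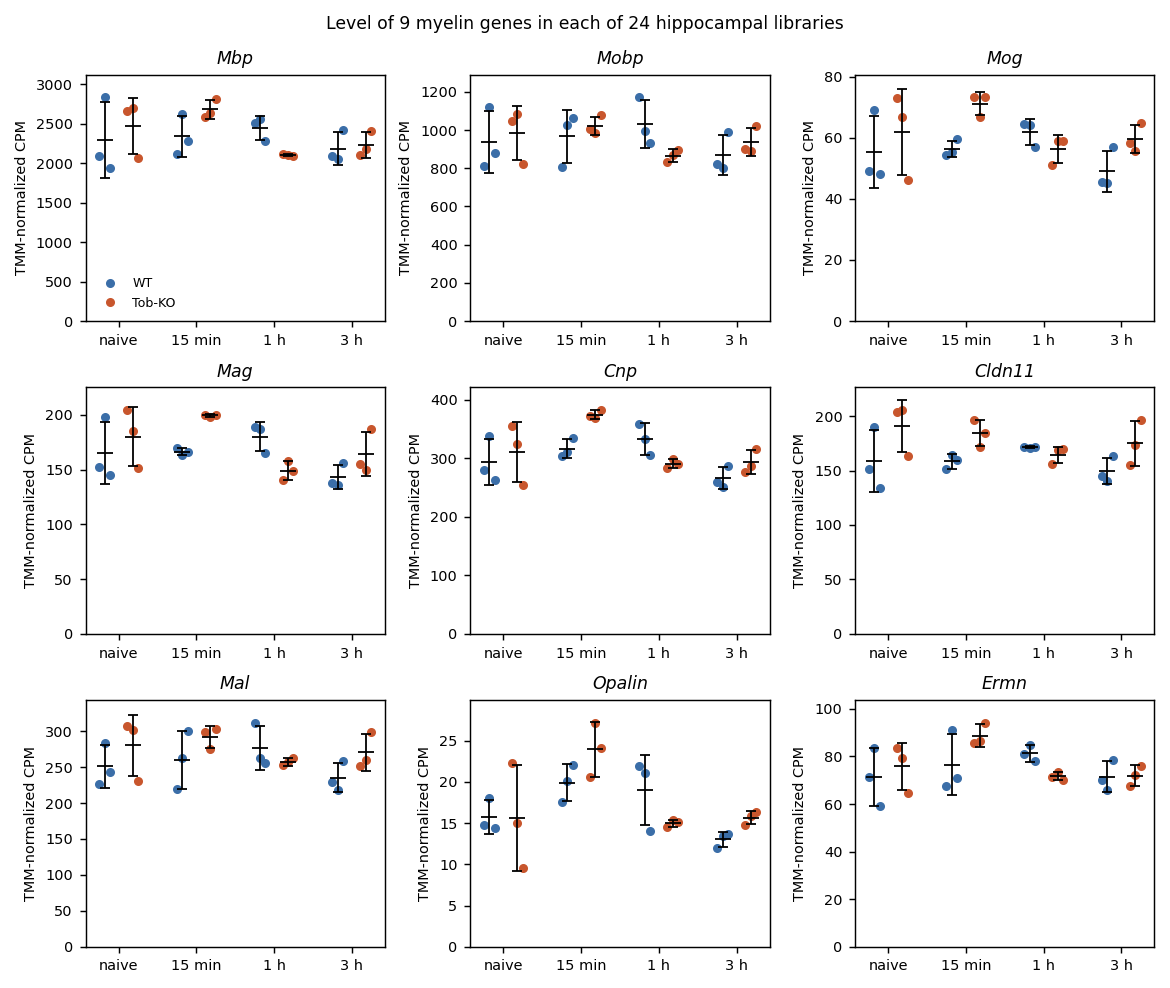
TMM-normalized CPM of each of the 9 genes (y axis, from 0) in the 24 libraries, by time point (x axis) and genotype label (blue WT, orange Tob-KO), 1 point per library with the mean and SD of the 3 libraries of a group. At 15 min the Tob-KO libraries of Mog, Mag, Cnp and Cldn11 lie above all WT libraries, and at 1 h those of Mbp, Mobp, Mag, Cnp, Cldn11 and Ermn lie below them.

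The 9 genes rose and fell together from library to library. Over the 24 libraries, Pearson's r of their log2 CPM across the 36 pairs of genes had a median of 0.796, from 0.423 (Cldn11 and Opalin) to 0.926 (Mag and Cnp), and with each group's mean removed the median was 0.806, so the common movement was present among mice of the same group. The median r of a member with the other genes tested was 0.00 (-0.00080 before and 0.00050 after the group means were removed). These are descriptions over libraries that share their groups. A library's myelin level can be summarised as the mean over the 9 genes of log2 CPM after subtraction of the gene's own 24-library mean. On this log2 scale it was highest in Tob-KO 15 min replicate 3 (0.28), where all 9 genes were above their means, and in Tob-KO naive replicate 1 (0.25). It was lowest in WT 3 h replicate 2 and in Tob-KO naive replicate 3 (both -0.27), where all 9 were below. The highest and the lowest library of Tob-KO naive mice thus lay close to both ends of the whole range.

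**Figure D2:**
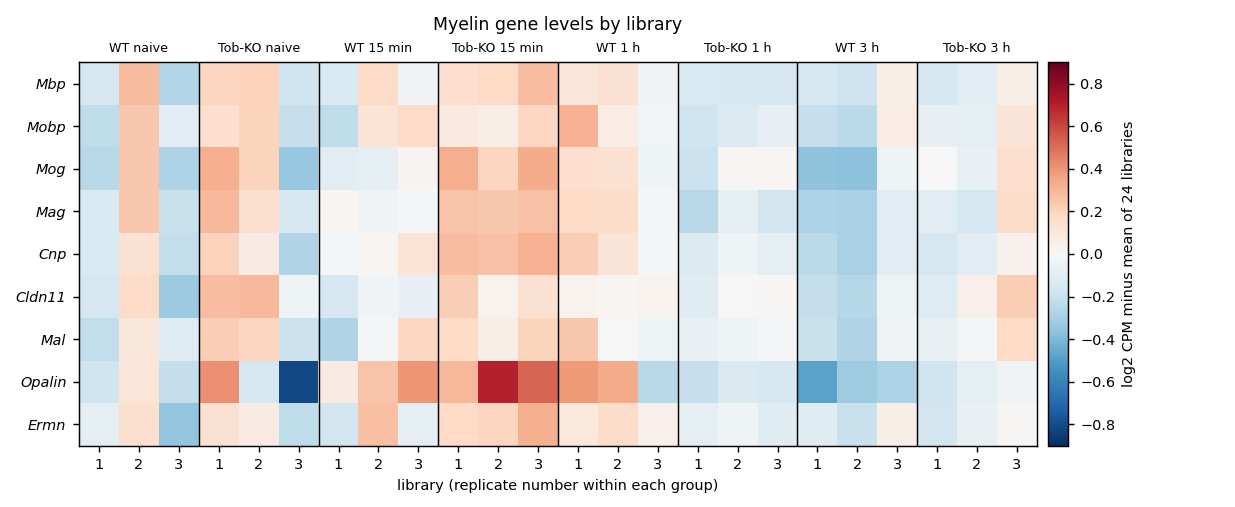
Log2 CPM of the 9 genes (rows) in the 24 libraries (columns, by group and replicate number) with the gene's own 24-library mean subtracted, red above and blue below it. Columns tend to have 1 colour from top to bottom, all 3 Tob-KO 15 min libraries are red, and each naive group holds both a red and a blue library.

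The genes lie apart in the genome. On GRCm38 as annotated by GENCODE, Mbp spans chr18:82475146-82585637, Mobp chr9:120149707-120181484, Cnp chr11:100574904-100591729 and Cldn11 chr3:31149920-31164324 on the forward strand. Mog spans chr17:37010743-37023398, Mag chr7:30899176-30914873, Opalin chr19:41061710-41077113, Mal chr2:127633226-127656695 and Ermn chr2:58045113-58052864 on the reverse strand. Cnp lies 6.359 Mb from Tob1 on chromosome 11, and differences in sequence inherited along with the deletion were not tested. Exons of Cnp and of Dnajc7, on the opposite strand, share 154 bases, and those of Ermn and Galnt5 share 237 bases. The strand setting of the counting is not given in the sources used here, so reads in those stretches cannot be assigned to either gene.

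In the mean level of the 9 genes, the 3 libraries of a naive group lay further apart than those of any later group. The SD of the mean myelin level was 0.23 in WT naive and 0.27 in Tob-KO naive, and 0.038 to 0.12 in the 6 groups of conditioned mice (log2 scale, n = 3 each). Mbp shows it: it was at 2094, 2840 and 1938 CPM in WT naive replicates 1 to 3, and Tob-KO naive replicates 1 to 3 had 2658, 2694 and 2062 CPM. In each naive group high and low libraries thus differed by more than the groups did. At 1 h the 3 libraries labelled Tob-KO were at 2123, 2108 and 2094 CPM of Mbp. The wider naive spread did not hold for every gene. Opalin was at 14.8, 18.1 and 14.4 CPM in WT naive and at 21.9, 21.1 and 14.1 CPM in WT at 1 h. The within-group SD of log2 CPM was lowest for Cnp (0.13) and highest for Opalin (0.28), with a median over the 9 genes of 0.16. That median was 0.15 over all genes tested and 0.080 over all genes at or above the level of Opalin, the lowest member. Opalin also had the widest range, 2.86-fold between its highest library (Tob-KO 15 min replicate 2) and its lowest (Tob-KO naive replicate 3), against 1.43-fold for Mal to 1.63-fold for Mog.

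The first comparison asks which genes differed between Tob-KO and WT hippocampi before and after conditioning. None of the 9 genes passed the study's criteria at any time point, which were an FDR and a p of at most 0.05 in edgeR's exact test together with at least a 2-fold difference. The background share of all tested genes that passed was small too, at 0.0218% in naive mice, 0.555% at 15 min, 0.033% at 1 h and 0.0274% at 3 h. The largest difference of any member was 1.27-fold, below the limit of 2-fold. Without that limit, at an FDR of at most 0.05 alone, 0 of the 9 passed in naive mice (background 0.0381% of genes), 2 at 15 min (0.746%), 0 at 1 h (0.121%) and 0 at 3 h (0.0657%). At an unadjusted p under 0.05 there were 0 in naive mice (background 4.04%), 6 at 15 min (8.05%), 6 at 1 h (5.34%) and 4 at 3 h (3.97%). Because the 9 genes move together, such counts are not 9 independent observations. In these bulk samples, fewer oligodendrocytes and less RNA per oligodendrocyte cannot be told apart.

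At 15 min all 9 genes had higher mean levels in the libraries labelled Tob-KO, and Mog and Mag passed the FDR and were higher. Mog was at 54.3, 55.2 and 59.5 CPM in the WT replicates 1 to 3, against 73.3, 66.7 and 73.4 CPM in the Tob-KO replicates, a log2 fold change of 0.34 (SE 0.064, edgeR exact test adjusted p = 0.00933). Mag was at 169, 163 and 166 CPM in the WT libraries, against 200.1, 198 and 200.4 CPM with the Tob-KO label, a log2 fold change of 0.26 (SE 0.047, edgeR exact test adjusted p = 0.0132). For both of these adhesion proteins' genes, every Tob-KO library lay above every WT library. DESeq2 also passed both (adjusted p = 0.0182 and 0.0109). With edgeR's quasi-likelihood test, which treats a gene's dispersion as itself estimated with error, the adjusted p was 0.448 for either. Mog also missed the FDR without WT 15 min replicate 1 (adjusted p = 0.0939), Tob-KO 15 min replicate 1 (0.0566) or Tob-KO 15 min replicate 3 (0.116). Mag missed it without any 1 of the Tob-KO 15 min libraries (adjusted p = 0.0727, 0.140 and 0.105) or without WT 15 min replicate 2 (0.0544) or 3 (0.124).

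Cnp and Cldn11 did not overlap between the groups at 15 min either, but did not pass the FDR. Cnp was at 304, 312 and 335 CPM in the WT libraries, against 372, 369 and 383 CPM with the Tob-KO label, a log2 fold change of 0.24 (SE 0.056, adjusted p = 0.0862). Cldn11 was at 151, 164 and 159 CPM in the WT libraries, against 196, 172 and 185 CPM with the Tob-KO label, a log2 fold change of 0.22 (SE 0.063, adjusted p = 0.213). In all, 4 of the 9 had every Tob-KO library above every WT library, against a background of 7.12% of genes, and 0 had them below, against 6.41%. Mbp, at 2114, 2620 and 2283 CPM in the WT libraries, against 2587, 2638 and 2819 CPM with the Tob-KO label, overlapped between the groups, with a log2 fold change of 0.20 (SE 0.082, adjusted p = 0.576). The log2 fold changes of Opalin (0.27, SE 0.12), Ermn (0.21, SE 0.11), Mal (0.17, SE 0.10) and Mobp (0.08, SE 0.098) did not pass. Without WT 15 min replicate 2, Ermn passed the FDR (log2 fold change 0.36, adjusted p = 0.00793). The median of the 9 was 0.22, and that of all genes tested was -0.0058.

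At 1 h the signs were the opposite, and all 9 genes had lower mean levels in the libraries labelled Tob-KO, and none passed the FDR. Mag, with the smallest p, was at 189, 187 and 165 CPM in the WT libraries, against 140.5, 158 and 149 CPM with the Tob-KO label, a log2 fold change of -0.27 (SE 0.061, adjusted p = 0.0732). Mbp was at 2514, 2556 and 2276 CPM in the WT libraries against 2123, 2108 and 2094 CPM in those labelled Tob-KO, and its log2 fold change was -0.21 (SE 0.054, adjusted p = 0.281). Mobp, Cnp, Cldn11 and Ermn also had every Tob-KO library below every WT library, which made 6 of the 9, against a background of 5.81% of genes, and 0 had them above, against 5.69%. For Cldn11 this rested on a small distance, since its levels were 171, 170.3 and 172 CPM in WT and 156, 168 and 169 CPM in Tob-KO, a log2 fold change of -0.05 (SE 0.041). Opalin had the largest estimate (-0.34, SE 0.14, adjusted p = 0.839) but overlapped, at 21.9, 21.1 and 14.1 CPM in the WT libraries, against 14.5, 15.3 and 15.1 CPM with the Tob-KO label. With the WT 1 h replicate 3 left out, Opalin passed the FDR, with a log2 fold change of -0.52 and an adjusted p of 0.00367. With DESeq2 in place of edgeR, Mbp (adjusted p = 0.0172) and Mag (adjusted p = 0.0203) passed at 1 h. Mag also passed without WT 1 h replicate 1 (log2 fold change -0.24, adjusted p = 0.0454) or WT 1 h replicate 3 (-0.33, adjusted p = 0.00165). The median of the 9 was -0.19, and that of all genes tested was -0.0013.

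In naive mice and at 3 h no gene of the 9 passed the FDR, and most groups overlapped. The median log2 fold change of the 9 genes in naive mice was 0.11, 8 genes having higher and 1 a lower estimate under the Tob-KO label, and the largest estimate was 0.27 (SE 0.14) for Cldn11, with an adjusted p of 1. No gene's groups were apart in naive mice, where 5.45% of genes were apart with Tob-KO higher and 5.99% with Tob-KO lower. At 3 h the median was 0.19 with all 9 estimates above 0, from 0.0056 for Ermn to 0.28 (SE 0.098) for Mog, and the smallest adjusted p was 0.958. Without WT 3 h replicate 3, Mog passed the FDR (log2 fold change 0.40, adjusted p = 0.0148). Opalin alone was apart at 3 h, at 12.0, 13.4 and 13.7 CPM in the WT libraries, against 14.8, 15.8 and 16.4 CPM with the Tob-KO label, where the background was 5.83% of genes with Tob-KO higher and 6.38% with Tob-KO lower. Its log2 fold change was 0.26 (SE 0.086, adjusted p = 1).

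**Figure D3:**
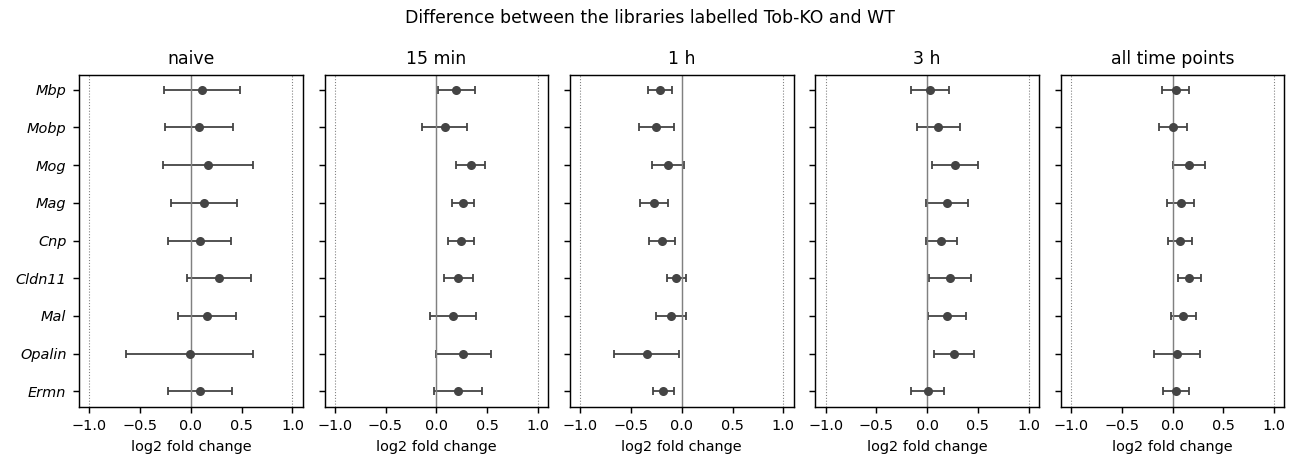
Log2 fold change of the libraries labelled Tob-KO against WT (x axis) for the 9 genes (y axis), at each time point and over all time points, from edgeR's quasi-likelihood fit with 95% confidence intervals, and dotted lines at a 2-fold change. At 15 min all 9 points lie above 0 and at 1 h all 9 lie below it, within a log2 fold change of 0.35 in size.

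Over all 4 time points together, with time as a factor in edgeR's quasi-likelihood model of the 24 libraries, the difference between genotypes was near 0 for most of the 9. None passed an FDR of 0.05, against 0.462% of all genes, and 2 had an unadjusted p under 0.05, against 13.3%. These were Cldn11 (log2 fold change 0.17, SE 0.055, adjusted p = 0.185) and Mog (0.16, SE 0.075, adjusted p = 0.361). For Mbp the estimate was 0.03, with a 95% confidence interval from -0.10 to 0.16, and for Mobp it was 0.0027, with one from -0.13 to 0.14. Intervals for all 9 lay between -0.18 and 0.32, and an average difference of 2-fold lay outside each of them.

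Markers of other cells and of neighbouring tissue moved with the myelin genes in some groups. The 4 thalamic markers (Prkcd, Slc17a6, Tnnt1, Lef1) summed to 62.5 to 72.2 CPM in WT and to 82.0 to 107 CPM in Tob-KO at 15 min, and to 75.6 to 92.5 CPM in WT and 66.7 to 74.0 CPM in Tob-KO at 1 h. At both times their groups were apart in the same direction as the myelin genes. Of single genes, 7.12% were apart with Tob-KO higher at 15 min and 5.81% with Tob-KO lower at 1 h. In naive mice and at 3 h the median log2 fold change of these 4 markers was -0.21 and -0.05. Both signs were the opposite of that of the 9 myelin genes. Of the 4, Prkcd, a kinase gene abundant in thalamic neurons, was called higher at 15 min (log2 fold change 1.08, SE 0.27, adjusted p = 0.0234), and 0 were called at 1 h. The 7 striatal markers overlapped between genotypes, at 171 to 176 CPM in WT and 164 to 193 CPM in Tob-KO at 15 min. At 1 h they summed to 171 to 185 and 176 to 197 CPM. Their median log2 fold change was -0.03 in naive mice, 0.06 at 15 min, 0.01 at 1 h and 0.16 at 3 h. At each of these times 0 of the 7 passed the FDR. The 10 choroid plexus markers, of which Ttr encodes the transthyretin carried into cerebrospinal fluid, summed to 27.2 to 47.2 CPM in WT and to 67.8 to 3379 CPM in Tob-KO at 15 min, where 10 of 10 were called higher. At 1 h they summed to 60.4 to 2427 CPM in WT and to 2209 to 3201 CPM in Tob-KO. At 3 h the median log2 fold change of the 10 was -1.08, and 0 were called, so that at 1 h and at 3 h their direction was the opposite of that of the myelin genes. The 5 markers of ependyma had a median log2 fold change of 0.34 in naive mice, 0.71 at 15 min, -0.27 at 1 h and 0.35 at 3 h, the same signs as the median of the 9 myelin genes, and 0 of the 5 passed the FDR at any time. They summed to 20.7 to 38.1 CPM in WT and to 37.8 to 45.5 CPM in Tob-KO at 15 min, with a slight overlap, and to 29.1 to 47.3 and 32.3 to 36.5 CPM at 1 h. The Tob-KO 15 min replicate 1 had 67.8 CPM of choroid plexus markers and a mean myelin level of 0.22, as against 0.21 and 0.28 in the other 2 libraries of its group, which had 3379 and 1306 CPM.

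Neuronal and astrocyte markers overlapped between genotypes at 15 min and were apart at 1 h. At 15 min the 10 neuronal markers summed to 10067 to 10168 CPM in WT and to 9909 to 10205 CPM in Tob-KO, and the 8 astrocyte markers to 5183 to 5911 and to 4955 to 5478 CPM. At 1 h the neuronal markers summed to 10266 to 10439 CPM in WT and to 9695 to 9988 CPM in Tob-KO, and the astrocyte markers to 5221 to 5615 and to 4675 to 4883 CPM, so that both lists were apart in the direction of the myelin genes. Their median log2 fold changes at 1 h were -0.06 and -0.16, beside -0.19 for the 9 myelin genes, and 0 of 10 and 0 of 8 passed the FDR. The 6 endothelial markers summed to 199 to 272 CPM in WT and to 183 to 209 CPM in Tob-KO at 15 min, the other direction than the myelin genes, with a median of -0.19, and of these Ly6c1 passed the FDR and was lower (log2 fold change -0.49, SE 0.11, adjusted p = 0.0344). The median of the 8 microglial markers was -0.06 at 15 min and -0.0026 at 1 h, and 0 of 8 passed. The 6 markers of fibroblasts and meninges were apart the other way at 1 h, at 137 to 268 CPM in WT and 277 to 298 CPM in Tob-KO, of which Col1a2, Dcn and Lum passed the FDR and were higher. No marker of these lists was at 0 in any library. Of single genes at 1 h, 5.81% were apart with Tob-KO lower and 5.69% with Tob-KO higher. How often the sums of other sets of genes lie apart was not tested. The part of these tissues in the differences of the myelin genes was not tested.

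**Figure D4:**
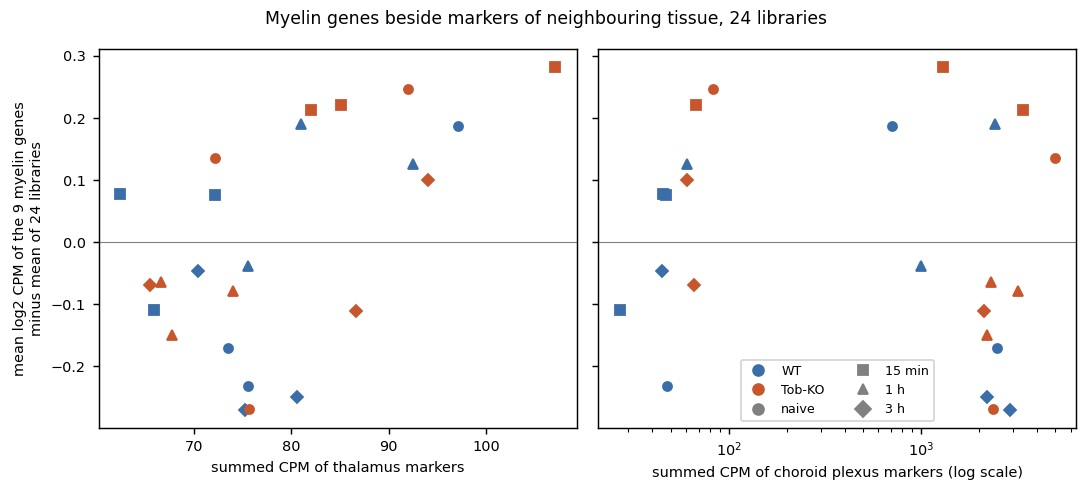
Mean log2 CPM of the 9 genes minus their means over the 24 libraries (y axis) against the summed CPM of 4 thalamic markers (left) and of 10 choroid plexus markers (right, log scale), 1 point per library, coloured by genotype label with a symbol for each time point. The library with the highest thalamic sum, Tob-KO 15 min replicate 3 at 107 CPM, also has the highest myelin level of 0.28, whereas libraries with low and with high choroid plexus sums both lie on either side of 0.

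The second comparison asks how the levels changed after conditioning. Each time point was compared with the naive mice of the same genotype in edgeR's quasi-likelihood model of the 8 groups, and all 3 comparisons of a genotype share its naive libraries. In WT, 0 of the 9 genes passed an FDR of 0.05 at 15 min (background 0.0462% of genes), at 1 h (0.185%) and at 3 h (0%), and 0 had an unadjusted p under 0.05 (background 8.71%, 10.8% and 3.99%). Their median log2 fold change was 0.05 at 15 min, 0.14 at 1 h, where all 9 estimates were above 0, and -0.11 at 3 h. The estimates at 1 h ran from 0.10 for Mbp to 0.27 (SE 0.20) for Opalin, and Cnp had the smallest p (0.18, SE 0.097, adjusted p = 0.531). In the libraries labelled Tob-KO, 0 of the 9 passed at 15 min (background 2.51%), at 1 h (1.13%) and at 3 h (0%). At an unadjusted p under 0.05 there were 2 at 15 min (17.3%), 1 at 1 h (15.6%) and 0 at 3 h (10.6%). The medians there were 0.15, -0.14 and -0.07, with all 9 estimates below 0 at 1 h.

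Opalin and Cnp had the lowest p-values in the Tob-KO libraries at 15 min. Opalin was at 22.4, 15.0 and 9.51 CPM in the naive replicates 1 to 3 and at 20.6, 27.2 and 24.1 CPM at 15 min, a log2 fold change of 0.62 (SE 0.20, adjusted p = 0.101). The naive libraries of Opalin thus covered more than a 2-fold range, and the highest of them was above the lowest at 15 min. With DESeq2 it passed (adjusted p = 0.0330), and with the Tob-KO naive replicate 1 left out its log2 fold change was 0.97 (adjusted p = 0.0113). With the Tob-KO naive replicate 3 left out, it was 0.36 (adjusted p = 0.291). Cnp was at 355, 324 and 255 CPM in naive mice and at 372, 369 and 383 CPM at 15 min, without overlap, and its log2 fold change was 0.27 (SE 0.097, adjusted p = 0.149). At 1 h Mag had the lowest p. It went from 205, 185 and 151 CPM in naive mice to 140.5, 158 and 149 CPM, with overlap, a log2 fold change of -0.28 (SE 0.11, adjusted p = 0.207).

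With both genotypes in 1 additive model, 0 of the 9 passed at 15 min (background 4.7% of genes), at 1 h (6.15%) and at 3 h (0%). At an unadjusted p under 0.05 there were 2 at 15 min (20.1%), 0 at 1 h (19.9%) and 0 at 3 h (9.05%). The 2 were Opalin (log2 fold change 0.48, SE 0.15, adjusted p = 0.0663) and Cnp (0.19, SE 0.080, adjusted p = 0.168). For Mbp the changes were 0.08 (95% confidence interval -0.11 to 0.26) at 15 min, -0.06 (-0.25 to 0.12) at 1 h and -0.11 (-0.29 to 0.078) at 3 h. The medians of the 9 were 0.08, 0.01 and -0.11 at the 3 times.

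**Figure D5:**
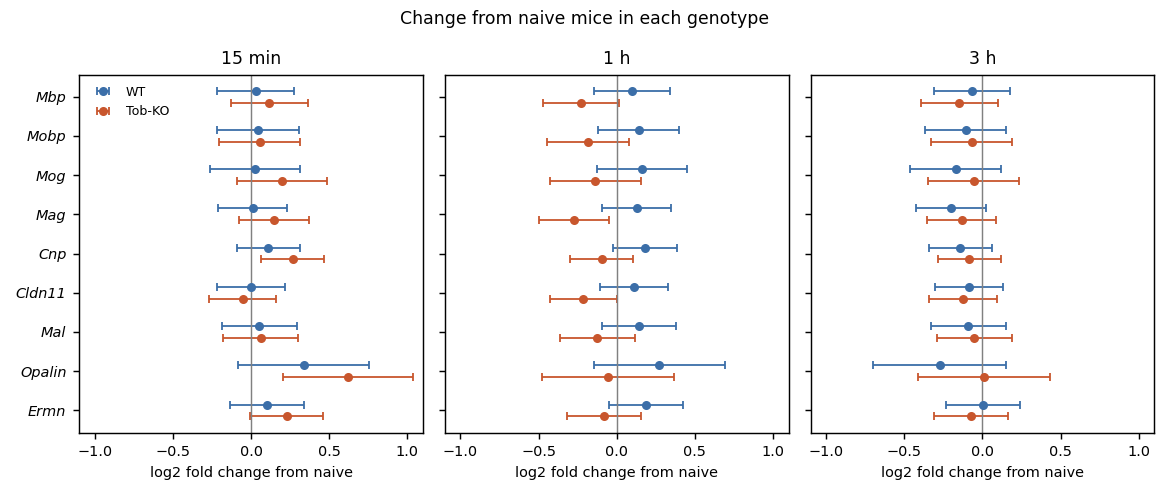
Log2 fold change from naive mice (x axis) of the 9 genes (y axis), 1 panel for each time after conditioning, in WT (blue) and in the libraries labelled Tob-KO (orange), with 95% confidence intervals from edgeR's quasi-likelihood model of 24 libraries. At 1 h the 9 WT points lie above 0 and the 9 Tob-KO points below it, and the intervals of a gene overlap between genotypes.

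The third comparison asks whether the change after conditioning differed between genotypes, as an interaction term in the model of 8 groups. None of the 9 passed an FDR of 0.05 at any time, and neither did any other gene (background 0% at each of the 3 times). At an unadjusted p under 0.05 there were 0 of the 9 at 15 min (background 4.82% of genes), 2 at 1 h (4.15%) and 0 at 3 h (4.74%). At 1 h all 9 interaction terms were below 0, with a median of -0.33 on the log2 scale. The 2 with an unadjusted p under 0.05 were Mag (-0.40, SE 0.15, 95% confidence interval -0.72 to -0.087) and Cldn11 (-0.33, SE 0.15, 95% confidence interval -0.63 to -0.021), both with an adjusted p of 0.999. The medians were 0.13 at 15 min and 0.04 at 3 h. These terms draw on both naive groups, whose libraries were the most spread in the mean myelin level.

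Other genes of mature oligodendrocytes were described in the same way. Of 38 further genes of mature oligodendrocytes and myelin, 32 had estimates above 0 at 15 min in the libraries labelled Tob-KO against WT, with a median of 0.19, and 33 had estimates below 0 at 1 h, with a median of -0.17. At 15 min 6 of the 38 passed the FDR of edgeR's exact test (background 0.746% of genes), all higher, among them the following. Tspan2, a tetraspanin gene, rose by 0.28 (SE 0.048), Gpr37, a receptor gene, by 0.31 (SE 0.054), Pllp, which encodes plasmolipin, by 0.33 (SE 0.070) and Gsn, which encodes gelsolin, by 0.45 (SE 0.054). Enpp2, the gene of autotaxin, was the only one over 2-fold (2.49, SE 0.59), and it is also abundant in choroid plexus, whose markers rose there. At 1 h Bcas1, a gene of oligodendrocytes that are forming myelin, passed and was lower (-0.27, SE 0.053, adjusted p = 0.0298). Over all time points Gsn alone of the 38 passed (0.31, SE 0.040, adjusted p = 0.000251), at 61.9 ± 4.91 CPM in WT and 76.8 ± 6.11 CPM in Tob-KO (SD, n = 12 each).

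After conditioning, a few of the 38 changed. Hapln2, which encodes a link protein of the matrix at nodes of Ranvier, fell in the libraries labelled Tob-KO by 0.70 on the log2 scale at 15 min (SE 0.14, adjusted p = 0.0146) and by 0.93 at 1 h (SE 0.14, adjusted p = 0.00873). Its level there was 29.0 ± 3.04 CPM in naive mice, 17.8 ± 2.77 at 15 min, 15.2 ± 0.872 at 1 h and 22.9 ± 2.95 at 3 h (SD, n = 3 each). In WT it was 24.3 ± 6.21, 20.1 ± 1.24, 19.9 ± 1.00 and 24.1 ± 1.54 CPM (SD, n = 3 each), which did not pass. The difference between the genotypes' changes was -0.44 at 15 min (SE 0.19) and -0.64 at 1 h (SE 0.20), with adjusted p of 0.981 and 0.999. With both genotypes together Hapln2 fell by 0.50 at 15 min (adjusted p = 0.0133) and by 0.61 at 1 h (adjusted p = 0.00257). Nfasc, the gene of neurofascin, an adhesion protein of the node and of the paranodal junction that neurons express as well, fell by 0.15 at 15 min (adjusted p = 0.017) and by 0.18 at 1 h (adjusted p = 0.00432) in that model. Pllp rose by 0.38 (adjusted p = 0.0343) and Sox10, the gene of a transcription factor of the whole lineage, by 0.33 (adjusted p = 0.0228) at 15 min. In Tob-KO 2 of the 38 passed at 15 min (Hapln2 and Pllp, background 2.51% of genes) and 2 at 1 h (Hapln2 and Nfasc, background 1.13%). The former count was 0 without Tob-KO naive replicate 2 or Tob-KO 15 min replicate 3 and 1 without Tob-KO naive replicate 3, and the latter was 0 without Tob-KO 1 h replicate 2 and 1 without any of Tob-KO naive replicates 1 and 2 and Tob-KO 1 h replicates 1 and 3. With both genotypes 4 of the 38 passed at 15 min (background 4.7% of genes) and 2 at 1 h (6.15%), the latter not above the background share. The count at 15 min depended on single libraries, with 0 to 6 when one was left out (0 without Tob-KO 15 min replicate 3, 1 without Tob-KO naive replicate 3 and 2 without WT naive replicate 3).

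Of 13 genes of oligodendrocyte precursors and committed precursors, 0 passed the FDR between genotypes at any time. Their summed level was 361 to 422 CPM over the 24 libraries, and their mean log2 CPM, with each gene's 24-library mean subtracted, ran from -0.20 to 0.21, as against -0.27 to 0.28 for the 9 myelin genes. At 3 h 11 of the 13 had estimates above 0 under the Tob-KO label, and their median log2 fold change was 0.18, beside 0.19 for the 9 myelin genes. The summed levels of the 13 were apart, at 361 to 387 CPM in WT and 388 to 403 CPM in Tob-KO. Of single genes, 5.83% were apart there with Tob-KO higher. After conditioning, Neu4, a sialidase gene, fell in the libraries labelled Tob-KO by 0.40 at 15 min (adjusted p = 0.0487) and by 0.56 at 1 h (adjusted p = 0.0209). It was the 1 of 13 that passed at each time (background 2.51% and 1.13% of genes). With both genotypes together, Sox6 (0.24, adjusted p = 0.0251) and Sox4 (0.23, adjusted p = 0.0198) rose at 15 min (2 of 13, background 4.7%). How far these calls depend on single libraries was not tested.

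Myelin membrane needs cholesterol in quantity, and neurons and astrocytes express the genes of its synthesis as well. With both genotypes together 10 of 21 such genes passed and were higher at 15 min (background 4.7% of genes in either direction), 13 of 21 at 1 h (6.15%) and 0 of 21 at 3 h (0%), and 0 were lower. Idi1, the gene of an isomerase of the mevalonate pathway, rose by 0.38 at 15 min (SE 0.073) and by 0.48 at 1 h (SE 0.073, adjusted p = 0.000500). Cyp51, the gene of the lanosterol demethylase, rose by 0.24 (SE 0.041) and by 0.38 (SE 0.041, adjusted p = 5.42e-05), from 59.6 ± 2.44 CPM in naive WT to 77.9 ± 3.46 at 1 h (SD, n = 3 each). Within genotypes 7 of 21 passed at 15 min (background 2.51% of genes) and 5 at 1 h (1.13%) in the libraries labelled Tob-KO. In WT 0 passed at 15 min (0.0462%) and 1 (Cyp51) at 1 h (0.185%), and no interaction passed. The count in Tob-KO at 15 min was 0 without Tob-KO naive replicate 3 or Tob-KO 15 min replicate 1, 1 without Tob-KO naive replicate 2, and 2 without Tob-KO naive replicate 1 or Tob-KO 15 min replicate 3. That at 1 h was 0 without Tob-KO naive replicate 1 or Tob-KO 1 h replicate 2 and 2 without Tob-KO naive replicate 2. Between genotypes 0 of 21 passed the FDR at any time. At 1 h the median change was 0.23 for the 21 cholesterol genes and 0.01 for the 9 myelin genes.

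The genes most like the 9 across the libraries included several of the list of 38. Ranked by Pearson's r of log2 CPM with the mean myelin level over the 24 libraries, among 19491 other genes, the first 10 included Prr18 (0.944), Tmem88b (0.938), Bcas1 (0.924), Gpr37 (0.912), Fa2h (0.904), Tmem63a (0.903), Ugt8a (0.892), Tspan2 (0.892) and Pde8a (0.889). The enzymes of Fa2h and Ugt8a, both in the list of 38, make the galactolipids of myelin. With each group's mean removed, Bcas1, Tmem88b, Prr18, Tspan2 and Gpr37 stayed among the first 10, beside Plekhb1, Fndc5, Them6 and Gatm.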

How the data were processed

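RNA sequencing covered the hippocampi of 24 mice, with poly(A) selection and a directional kit. Per the labels and the study's methods, the authors mapped reads to GRCm38 with STAR 2.6.1d and counted them with HTSeq 0.9.0. The counts were deposited raw, 1 whole number for each gene in each library. The annotation release, the strand setting and the treatment of duplicate and multiply mapped reads are not given in the sources used here. The reads carried no molecular identifiers.

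Libraries were grouped by the genotype and time in their labels. Tob-KO was compared with WT at each time by edgeR's exact test (edgeR 4.0.16, R 4.3.3), as in the study's methods: TMM normalization, a minimum of 0.2 CPM in 2 libraries out of the 6 in the comparison, and limits of 0.05 for the FDR and p and of 2 for the fold change. At 15 min 102 genes passed these limits here, more than the study reported, so the background shares are not the study's own. The reason for the difference was not tested. The genotype over all times, the change from naive mice and the interaction used the quasi-likelihood test of edgeR with all 24 libraries (19500 genes), at an FDR of 0.05 and no limit on the fold change. Standard errors and 95% intervals come from the quasi-likelihood fit. CPM are TMM-normalized over 24 libraries. Log2 CPM used a prior count of 2. Lengths are merged exons of GENCODE's annotation of GRCm38, possibly not the one behind the counts, and promoters are RefSeq's. Within groups, the chi-square of counts per degree of freedom was 3.68 to 22.8, so no 2 libraries were the same. The code was tested on simulated data. The members and the gene lists were chosen with earlier results of these data known. The 9 members are all named, with genes of the lists that passed a limit and the 10 genes most like the members, except 1 gene that is not reported here. Alternatives were DESeq2 1.42.0, other normalizations and filters, a choroid plexus covariate, a replicate block and leaving out each library. Not every alternative was run for every comparison. The same replicate numbers occur in each group, and nothing in the labels says that a number marks a shared litter or day.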

Additional observations from a re-analysis of the deposited data

How the results depend on the processing

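The number of the 9 genes called was recomputed for 17 comparisons, each under the alternatives run for it, and 14 counts stayed at 0 throughout. The choroid plexus covariate was not run for the comparisons of genotypes at single time points. Whether the differences at 15 min and 1 h hold with it was therefore not tested. Between genotypes at each time the count kept the 2-fold limit, which no member reached under any alternative. A count of 0 there therefore does not show stability. By the FDR alone, members passed under some alternatives at 1 h and at 3 h, as given above. Between genotypes at 15 min the count was 2 without the fold limit (Mog and Mag). Those 2 no longer passed the FDR with the quasi-likelihood test, with the dispersion from all 24 libraries, with a replicate block, or without any of several single libraries. For 15 min against naive, Opalin alone was called by DESeq2 in Tob-KO (1) and in both genotypes together (1), and counts without 1 library were 0 to 1 in each (1 without Tob-KO naive replicate 1, and in both genotypes also without WT 15 min replicate 1). The cause was not tested.

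The median log2 fold changes of the 9 moved by more than the pooled SD of 0.15 in 3 comparisons when 1 library was left out. For 15 min against naive in WT the range was -0.030 to 0.21, with 0.21 without WT naive replicate 2. Without Tob-KO naive replicate 3, it was -0.31 for 1 h against naive in Tob-KO (range -0.31 to -0.051) and -0.23 for 3 h (range -0.23 to -0.00039). In 5 of the 17 comparisons the median changed sign when 1 library was left out, namely that one, 3 h against naive in WT (range -0.19 to 0.017), 1 h against naive in both genotypes (-0.054 to 0.049), and the interactions at 15 min (-0.015 to 0.22) and 3 h (-0.080 to 0.12). Between genotypes, ranges without 1 library were 0.026 to 0.25 in naive mice, 0.19 to 0.26 at 15 min, -0.25 to -0.15 at 1 h and 0.087 to 0.26 at 3 h.

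Counts over the gene lists were added after seeing the data. Of the 38 mature genes at 15 min against naive in Tob-KO, 2 were called, and 1 with a replicate block, 0 with only the 6 libraries compared, 4 with DESeq2 and 0 to 2 without 1 library. At 1 h these were 2, then 1, 1, 5 and 0 to 3. With both genotypes at 15 min there were 4, with 7 by DESeq2 and 0 to 6 without 1 library. Of the 21 cholesterol genes at 15 min in Tob-KO, 7 were called, and 1 with a replicate block, 0 with only the 6 libraries and 0 to 7 without 1 library. At 1 h there were 5, with 8 by DESeq2 and 0 to 6 without 1 library. With both genotypes, the counts of 10 and 13 stayed at 7 to 12 and 10 to 13 without 1 library. The replicate numbers paired the samples in 0 of 10 pairs of groups (r from -0.42 to 0.36), and the replicate block left 0 of the 9 genes called in every comparison.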

Other observations

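Some markers of other cell types passed and were higher 15 min after conditioning with both genotypes together. The background share of all genes that passed there, in either direction, was 4.7%. Of 6 endothelial markers, 4 passed the FDR of edgeR's quasi-likelihood test and were higher, namely Cldn5 (log2 fold change 0.85, SE 0.16, adjusted p = 0.0035), Kdr (0.65, SE 0.12), Flt1 (0.43, SE 0.080) and Pecam1 (0.36, SE 0.10). Of 8 astrocyte markers 2 passed, Aqp4 (0.33, SE 0.052, adjusted p = 0.00131), the gene of the water channel of the endfeet, and Gja1 (0.23, SE 0.039, adjusted p = 0.00224), the gene of a connexin. Slc6a13, 1 of 6 markers of fibroblasts and meninges (0.88, SE 0.26, adjusted p = 0.0499), and Lef1, 1 of 4 thalamic markers (0.52, SE 0.12, adjusted p = 0.013), passed as well. The median of the 4 thalamic markers was 0.15. Among the remaining lists, 0 of 10 neuronal, 0 of 8 microglial, 0 of 7 striatal, 0 of 5 ependymal and 0 of 10 choroid plexus markers passed.

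Trf, the gene of transferrin, which oligodendrocytes make in quantity, was listed at 0.723 ± 0.212 CPM (SD, n = 24), with 14 to 43 counts per library. On GRCm38 its exons share 2108 bases on the same strand with those of Gm20425, which had 0 counts in all libraries.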
